A study of Mus musculus with 5 samples.

Results

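Voltage-gated potassium channels and the subunits that travel with them were described across the 14 cell types of the lumbar dorsal root ganglion (DRG), the cluster of sensory neurons beside the spinal cord. The genes were chosen by name alone: every row of the count matrix whose symbol begins with Kcn and goes on with a pore subunit letter (a, b, c, d, f, g, h, q, s or v) or with ab, ip or e, followed by a number. This rule gave 49 genes of the 17271 rows, and together they held 396203 of 224553219 unique molecular identifiers (UMIs, 1 per captured RNA molecule). The samples were 5 wild type, untreated adult C57BL/6 mice of both sexes, and each library was taken as 1 mouse. Ganglia were digested with collagenase and trypsin, and single cells were profiled with a droplet method that reads the 3′ ends of transcripts. The deposited annotation divided 3352 cells into 3 neurofilament (NF), 3 non-peptidergic (NP) and 5 peptidergic (PEP) neuron types, tyrosine hydroxylase neurons (Th), satellite glia and endothelial cells. No mouse carried a mutation or a treatment. Cell types were therefore set against each other inside the same 5 libraries, named A to E here.

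A voltage-gated potassium channel opens when the membrane depolarises and lets potassium leave the cell, which ends the action potential and sets how fast the next one can follow. Kcna (Kv1), Kcnb (Kv2), Kcnc (Kv3), Kcnd (Kv4), Kcnq (Kv7) and Kcnh (EAG, ERG and ELK) genes encode pore subunits, and Kcnf, Kcng, Kcns and Kcnv encode silent subunits that form channels only together with a Kv2 subunit. Kcnab genes encode the Kv beta subunits of Kv1 channels, Kcnip genes encode the KChIPs that bind Kv4 channels, and Kcne genes encode small single-pass subunits. In sensory neurons Kv1 channels restrain repetitive firing, Kv3 channels allow brief spikes and high rates, Kv4 channels carry the transient A-type current, and Kv7 channels carry the M-current.

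The libraries held 164 to 1370 cells, and the median was 52499.5 to 72840 UMIs per cell. Of 3345 distinct barcodes, 7 occurred in more than 1 library. The 70 sums of a type in a library rested on 3 cells or more, and 9 of them on fewer than 10 cells. The 6 neuronal markers fixed for the check (Rbfox3, Snap25, Uchl1, Tubb3, Prph and Nefh) summed to between 9059 and 18388 CPM (UMIs of a gene per 1000000 UMIs) in every neuron type and library. They summed to between 308 and 1192 CPM in satellite glia and endothelial cells. Levels below are CPM over all cells of that type in that library, given as the mean ± SD over the 5 libraries (n = 5). Levels are set side by side across types for one gene and not between genes, since the 3′ ends of different genes are captured unequally. The types were clustered by the authors from these same cells, so a difference between types is a description of the clusters. Its p-value sets the difference against the spread over libraries within types, pooled over the types of the fit. The main fit has no term for the library, so the sums of 1 library are treated as independent.

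Summed over the 49 genes, the level was highest in NF_Calb1 neurons, at 4662 ± 599 CPM. NF_Pvalb neurons followed at 3625 ± 707 CPM, NF2_Ntrk2.Necab2 neurons at 3111 ± 158 CPM, PEP2_Htr3a.Sema5a neurons at 3039 ± 199 CPM and Th neurons at 2005 ± 121 CPM. The other 7 neuron types lay between 783 CPM in NP_Nts neurons and 1480 CPM in NP_Mrgprd neurons. Satellite glia held 316 ± 82.6 CPM and endothelial cells 118 ± 38.4 CPM. Each sum weights a gene by how well its 3′ end is captured, and no test was run on these sums. Among the neuron types 35 of the 49 genes had enough UMIs to be tested, and all 35 differed among the 12 types (edgeR quasi-likelihood test, adjusted p under 0.01). This share is near the background, since 94.3% of the 11561 genes tested differed in the same test.

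**Figure D1:**
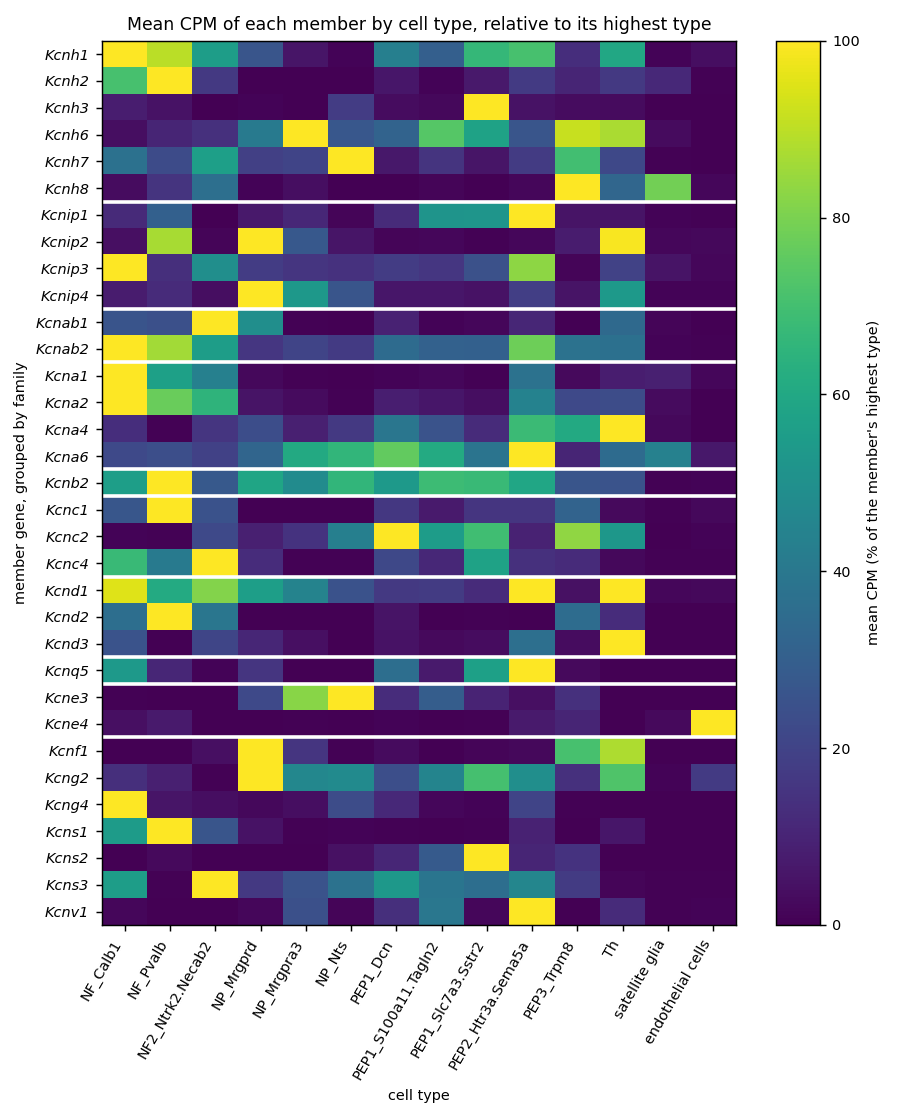
Mean CPM of each of 33 channel genes (rows, grouped by family) in each of the 14 cell types (columns), drawn as a percentage of the gene's highest type. Kcna1 and Kcna2 share their bright cells in the 3 NF types and PEP2_Htr3a.Sema5a, while the glial and endothelial columns are mostly dark, with Kcnh8 and Kcna6 in satellite glia and Kcne4 in endothelial cells as their bright cells.

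The first comparison set the 3 NF types, the large myelinated mechanosensory and proprioceptive neurons, against the other 9 neuron types. Of the 35 genes tested, 16 were higher in NF neurons by at least 2-fold at an adjusted p under 0.01, against 14% of all genes, and 7 were lower, against 11.6% of all genes. The median log2 difference over the tested members was 0.56, and over all genes tested it was -0.02. The 2-fold limit applies to the difference between mean log2 levels with each type weighted equally, so it can differ from the ratio of mean CPM. Group values and their overlap, here and for NP against PEP neurons, are averages over the types of a group in each library. Single types can lie on the other side.

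Among the Kv1 genes, Kcna1, a pore subunit found beside the nodes of myelinated axons, was highest in NF neurons. Averaged over the 3 NF types its level was 1210, 1152, 1165, 837 and 927 CPM in libraries A to E. Over the other neuron types it was 98.0, 100, 97.6, 79.8 and 102 CPM. The groups did not overlap, and the log2 difference was 5.01 ± 0.12 (SE, adjusted p = 1.5e-42, edgeR). Kcna2, which assembles with Kcna1, was 464 ± 67.3 CPM against 74.5 ± 3.67 CPM and was also called higher. Kcna4, an inactivating Kv1 subunit of small-diameter neurons, went the other way. Its level was 3.34, 3.97, 8.83, 6.33 and 5.10 CPM in NF neurons and 20.5, 21.9, 25, 21.3 and 23.2 CPM in the others. The log2 difference of Kcna4 was -2.24 ± 0.18 (adjusted p = 2.4e-17, edgeR), with no overlap. Kcna6 was lower as well, at 26.3 ± 6.11 CPM against 64.1 ± 5.56 CPM. The 4 tested Kv1 genes were thus called higher in 2 cases and lower in 2.

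Both tested Kv beta genes, whose products bind the inner face of Kv1 channels, were higher in NF neurons. Kcnab1 was 125, 106, 115, 123 and 124 CPM in NF neurons of libraries A to E and 23.8, 31.9, 26.9, 26.6 and 32.6 CPM in the other neurons. Its log2 difference was 3.59 ± 0.12 (adjusted p = 2.4e-35, edgeR) without overlap. Kcnab1 was 236 CPM in NF2_Ntrk2.Necab2, 61.4 CPM in NF_Calb1 and 58.0 CPM in NF_Pvalb neurons. NP_Mrgprd and Th neurons, at 117 and 80.5 CPM, had higher means than NF_Calb1 and NF_Pvalb neurons. Kcnab2 was 618 ± 79.3 CPM against 258 ± 22.7 CPM.

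Among the Kv3 genes, Kcnc1 and Kcnc4 were higher and Kcnc2 was lower in NF neurons. Kcnc1, a subunit of fast-spiking neurons, was 135, 169, 142, 130 and 149 CPM in NF neurons and 28.0, 30.3, 30.4, 26.3 and 27.2 CPM in the others, a log2 difference of 3.64 ± 0.08 (adjusted p = 5.4e-46, edgeR). Every NF average lay above every average of the other group. By type, Kcnc1 was 286 CPM in NF_Pvalb, 77.1 CPM in NF_Calb1 and 72.0 CPM in NF2_Ntrk2.Necab2 neurons. PEP3_Trpm8 neurons, at 91.6 CPM, had a higher mean than NF_Calb1 and NF2_Ntrk2.Necab2 neurons. Kcnc2 was 0, 0.69, 9.63, 8.53 and 6.23 CPM in NF neurons against 31.5, 32.8, 25.6, 31.3 and 34.5 CPM, a log2 difference of -3.79 ± 0.22 (adjusted p = 8.9e-24, edgeR). The Kcnc2 level within the NF types came from NF2_Ntrk2.Necab2 neurons, at 14.1 CPM, whereas NF_Calb1 and NF_Pvalb neurons stood at 0.538 and 0.383 CPM. Kcnc4 was 165 ± 23.7 CPM against 34.7 ± 7.44 CPM. PEP1_Slc7a3.Sstr2 neurons, at 136 CPM, had a higher Kcnc4 mean than NF_Pvalb neurons, at 97.8 CPM.

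Kv4 genes were measured at different depths. Kcnd2 was scarce, with 160 UMIs in all NF neurons and 49 in the others. Its level was 10.2, 6.58, 4.53, 6.02 and 5.97 CPM in NF neurons and 0.882, 0.932, 0.207, 0.968 and 0.444 CPM in the others, which did not overlap. Kcnd2 was called higher, but 4 types held 0 UMIs of it, so its fitted fold change is not given. Its level came mostly from NF_Pvalb neurons, at 11.4 CPM, and the next type, NF2_Ntrk2.Necab2, held 4.47 CPM. The count filter favours a scarce gene on the side where it is high, so no p-value is given either. Kcnd1 was called higher at 112 ± 14.2 CPM against 59.2 ± 4.51 CPM. Its highest means, though, were in PEP2_Htr3a.Sema5a and Th neurons, at 142 and 141 CPM. The NF types held 135 CPM in NF_Calb1, 115 CPM in NF2_Ntrk2.Necab2 and 86.4 CPM in NF_Pvalb neurons. Kcnd3 was not called, at 41.9 ± 12.1 CPM against 49.3 ± 4.99 CPM, and its levels in the 3 NF types were far apart: 68.8 CPM in NF_Calb1, 55.9 CPM in NF2_Ntrk2.Necab2 and 0.930 CPM in NF_Pvalb neurons.

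Of the KChIP genes, Kcnip3 was higher in NF neurons, at 109 ± 14.9 CPM against 46.5 ± 2.24 CPM. This level came from NF_Calb1 and NF2_Ntrk2.Necab2 neurons, at 200 and 98.8 CPM. NF_Pvalb neurons, at 27.2 CPM, lay under the mean of the other neurons. Kcnip4 was 35.2, 42.2, 36.4, 48.0 and 41.4 CPM in NF neurons and 160, 158, 144, 157 and 171 CPM in the others, a log2 difference of -1.31 ± 0.10 (adjusted p = 5.6e-18, edgeR). Kcnip1 was 16.6, 13.3, 16.5, 8.19 and 16.5 CPM against 28.4, 28.9, 26.5, 26.4 and 26.2 CPM, with a log2 difference of -1.44 ± 0.27 (adjusted p = 3.9e-06, edgeR). Neither gene's groups overlapped, but the call of Kcnip1 was lost with cells thinned to 10000 UMIs (log2 difference -0.63, adjusted p = 0.19, edgeR). The NF types also went apart for Kcnip1, at 11.8 CPM in NF_Calb1, 0.216 CPM in NF2_Ntrk2.Necab2 and 30.7 CPM in NF_Pvalb neurons. Against the mean of the other neuron types, Kcnip1 was called higher in NF_Pvalb neurons. Kcnip2 was not called, with 49.8 ± 4.18 CPM against 44.1 ± 5.74 CPM.

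In the Kcnh family, Kcnh2, the ERG subunit also known from the heart, was 94.1, 113, 100, 90.7 and 91.3 CPM in NF neurons and 8.37, 12.3, 9.06, 9.70 and 10.9 CPM in the others. The log2 difference was 4.56 ± 0.12 (adjusted p = 7.3e-42, edgeR) and the group averages did not overlap. By type, Kcnh2 was 156 CPM in NF_Pvalb, 111 CPM in NF_Calb1 and 25.8 CPM in NF2_Ntrk2.Necab2 neurons. The last was close to PEP2_Htr3a.Sema5a (26.5 CPM) and Th neurons (25.8 CPM). Kcnh1, an EAG subunit, was 40.4 ± 2.32 CPM against 17.3 ± 2.68 CPM and was called higher. Its mean in NF2_Ntrk2.Necab2 neurons, 27.5 CPM, was under those of PEP2_Htr3a.Sema5a (34.9 CPM), PEP1_Slc7a3.Sstr2 (32.9 CPM) and Th neurons (29.5 CPM). Kcnh8, an ELK subunit, was called higher on the mean log2 scale although its groups overlapped in CPM, at 7.17 ± 1.03 CPM against 6.17 ± 2.28 CPM, since PEP3_Trpm8 neurons carried most of the second value. NP_Nts and PEP1_Dcn neurons held 0 UMIs of Kcnh8, which leaves the mean log2 level of the second group without a lower limit. Its fitted fold change is therefore not given. Kcnh6, another ERG gene, was lower in NF neurons, with 0, 0.472, 1.27, 0.208 and 0.139 CPM against 3.55, 1.95, 4.08, 2.05 and 1.77 CPM. Its 9 UMIs in NF neurons make this a low-count call (log2 difference -2.48 ± 0.44, adjusted p = 1.4e-06, edgeR).

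Kcnq3, an M-current subunit, held 50 UMIs in all cells and was not tested, with its highest level at 1.63 ± 0.701 CPM in NF_Calb1 neurons. Kcnq5, which also encodes a Kv7 pore subunit, was not called, at 6.75 ± 1.65 CPM against 7.44 ± 1.40 CPM.

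Among the silent subunits, Kcns1 was the clearest NF gene. Its level was 115, 127, 92.2, 93.2 and 94.0 CPM in NF neurons and 3.96, 4.46, 5.20, 4.51 and 4.58 CPM in the other neurons, a ratio of mean CPM of 22.9. The log2 difference was 5.37 ± 0.11 (adjusted p = 1.4e-46, edgeR), with no overlap. Kcng4 was also called higher, at 7.21 ± 3.48 CPM against 1.42 ± 0.365 CPM, a level that NF_Calb1 neurons carried. Kcng2 was lower, at 1.36, 2.32, 0.814, 1.20 and 0.689 CPM against 8.06, 8.85, 8.78, 9.5 and 8.73 CPM, a log2 difference of -3.32 ± 0.27 (adjusted p = 6.2e-17, edgeR) without overlap.

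For 5 of the 12 genes not called in this comparison (Kcnf1, Kcns2, Kcnv1, Kcnh3 and Kcne3) the test was void, because a type with 0 UMIs leaves the mean log2 level without a lower limit. All 5 were lower in NF neurons in CPM without overlap between the groups. Kcnv1, for instance, was 0.557 ± 0.528 CPM in NF neurons and 16.4 ± 1.42 CPM in the others. DESeq2 called Kcnv1 (adjusted p = 6.7e-13), Kcne3 (adjusted p = 4.3e-09), Kcns2 (adjusted p = 0.00021) and Kcnf1 (adjusted p = 0.004) lower, and not Kcnh3 (adjusted p = 0.72). All 5 had few UMIs in NF neurons and passed the count filter through the other types, so lower calls were favoured in advance.

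**Figure D2:**
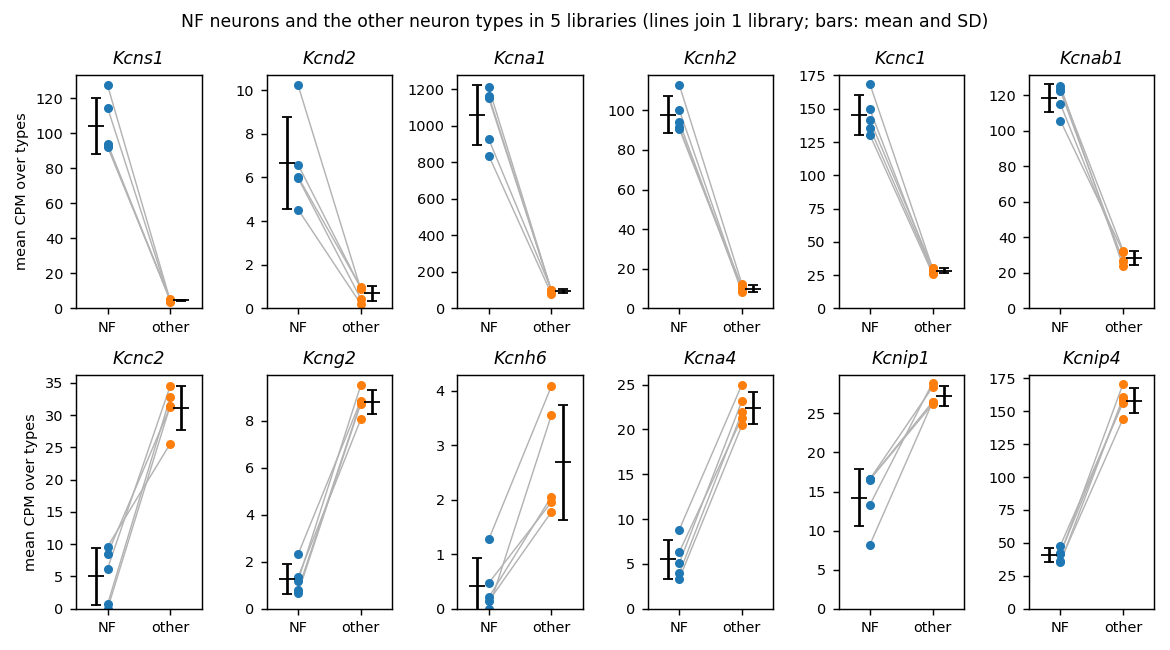
Mean CPM over the 3 NF types (blue) and over the other 9 neuron types (orange) for 12 channel genes, with 1 point per library, lines joining the 2 values of a library, and bars for the mean and SD over 5 libraries. In each panel every line runs the same way, down for the upper 6 genes and up for the lower 6.

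The promoters of 6 of these 12 genes are shown because the genes differ between NF and other neurons in opposite directions and have 1 entry each in the RefSeq promoter table (GRCm38.p6), which held 33 of the 49 genes. Kcna1 and Kcnab1 are not among them, since the first has no entry and the second several. Each sequence is the 250 bases before the annotated transcription start, read 5′ to 3′ on the strand of the gene. Capitals mark matches, on either strand, to GGGCGG (GC box) and TGTGGT (RUNX core). The TATA box (searched as TATAAA with no mismatch), CCAAT (the NF-Y motif), TAATTA (homeodomain core) and CACGTG (E-box) were searched too and had no match in these 6 sequences.
Kcns1, chr2:164171114-164171363, minus strand, higher in NF: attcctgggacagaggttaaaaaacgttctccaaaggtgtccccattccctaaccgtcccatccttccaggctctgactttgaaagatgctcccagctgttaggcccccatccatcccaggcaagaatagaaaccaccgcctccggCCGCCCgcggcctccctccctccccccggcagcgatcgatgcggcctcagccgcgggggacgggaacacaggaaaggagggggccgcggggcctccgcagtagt
Kcnd2, chr6:21215096-21215345, plus strand, higher in NF: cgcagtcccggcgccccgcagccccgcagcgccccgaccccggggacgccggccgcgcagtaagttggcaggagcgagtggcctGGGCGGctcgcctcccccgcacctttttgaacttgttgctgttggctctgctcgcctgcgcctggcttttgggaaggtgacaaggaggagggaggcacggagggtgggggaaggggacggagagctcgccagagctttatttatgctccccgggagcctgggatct
Kcnh2, chr5:24329592-24329841, minus strand, higher in NF: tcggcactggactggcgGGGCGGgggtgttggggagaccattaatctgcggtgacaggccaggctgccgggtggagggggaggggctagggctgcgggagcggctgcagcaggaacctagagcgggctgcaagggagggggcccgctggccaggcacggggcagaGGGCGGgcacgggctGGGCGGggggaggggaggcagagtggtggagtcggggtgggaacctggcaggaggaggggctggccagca
Kcnc1, chr7:46396218-46396467, plus strand, higher in NF: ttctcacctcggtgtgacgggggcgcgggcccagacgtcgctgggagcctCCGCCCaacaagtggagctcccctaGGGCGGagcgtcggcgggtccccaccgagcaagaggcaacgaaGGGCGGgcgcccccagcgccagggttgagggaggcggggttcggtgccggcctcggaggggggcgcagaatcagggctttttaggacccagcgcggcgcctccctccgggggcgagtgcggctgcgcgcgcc
Kcnh6, chr11:106007898-106008147, plus strand, lower in NF: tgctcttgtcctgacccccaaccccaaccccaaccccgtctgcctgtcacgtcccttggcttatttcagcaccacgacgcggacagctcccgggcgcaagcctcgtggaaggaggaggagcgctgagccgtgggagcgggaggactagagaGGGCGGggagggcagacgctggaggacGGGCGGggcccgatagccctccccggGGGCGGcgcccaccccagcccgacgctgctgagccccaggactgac
Kcna4, chr2:107290339-107290588, plus strand, lower in NF: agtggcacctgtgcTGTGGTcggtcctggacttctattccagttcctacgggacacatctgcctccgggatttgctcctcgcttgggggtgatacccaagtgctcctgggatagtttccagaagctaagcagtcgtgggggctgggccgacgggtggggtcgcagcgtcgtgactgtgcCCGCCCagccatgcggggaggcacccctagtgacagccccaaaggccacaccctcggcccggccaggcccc

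The Kcnh2 sequence lies inside the gene, which GENCODE M21 places at chr5:24319589-24351604, and so belongs to a start downstream of its first exon. All 6 sequences held at least 1 GC box, in genes of both directions, and Kcna4 also held the RUNX core. Over the 49 promoter windows of the 33 genes (300 bases, 250 before and 50 after the start), the GC box was present in 51.0%, against 35.7% of the 32851 windows in the table. The TATA box was present in 2.04% of the members' windows and 13.6% of all windows, the RUNX core in 8.16% and 16.8%, and CCAAT in 30.6% and 37.4%. The E-box was present in 8.16% and 7.15%, and TAATTA in 0% and 5.29%. The members' windows had a median GC content of 58.3%, and all windows 52.7%. These counts describe letters in a window, and several windows belong to 1 gene.

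The comparison of the 3 NP types with the 5 PEP types separated 2 classes of mostly small-diameter nociceptive and itch neurons. Of the 35 genes tested, 6 were higher in NP neurons, against 5.47% of all genes, and 15 were lower, against 14.1%. The median log2 difference was -0.75 over the tested members and -0.06 over all genes tested.

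Kcnc1 was 0.0692, 0.765, 0.268, 1.02 and 0.664 CPM in NP neurons of libraries A to E, and 49.1, 52.7, 53.0, 45.1 and 46.8 CPM in PEP neurons. The log2 difference was -5.88 ± 0.14 (adjusted p = 2e-42, edgeR), and the 5 PEP types each stood above the 3 NP types in mean CPM, from 20.4 CPM in PEP1_S100a11.Tagln2 to 91.6 CPM in PEP3_Trpm8 neurons. Kcnc4 was 7.06, 16.3, 7.69, 11.6 and 11.9 CPM in NP neurons against 39.7, 64.0, 46.9, 63.9 and 60.1 CPM in PEP neurons (log2 difference -3.52 ± 0.23, adjusted p = 8.3e-21, edgeR). Kcnc2 was lower too, at 14.2 ± 1.12 CPM against 40.7 ± 4.53 CPM. The NP and PEP averages of these 3 genes did not overlap. By type, Kcnc4 had a higher mean in NP_Mrgprd neurons (29.7 CPM) than in PEP3_Trpm8 (29.1 CPM) and PEP1_S100a11.Tagln2 neurons (26.3 CPM). Kcnc2 was 27.7 CPM in NP_Nts neurons and 6.23 CPM in PEP2_Htr3a.Sema5a neurons.

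Kcnh2 was 0, 0.441, 0.236, 0.312 and 0.266 CPM in NP neurons, from 29 UMIs, and 10.1, 15.8, 11.6, 11.9 and 14.7 CPM in PEP neurons, from 799 UMIs. The log2 difference was -4.80 ± 0.32 (adjusted p = 1.4e-20, edgeR). Kcnh1 was 4.74, 5.60, 6.19, 5.24 and 5.17 CPM against 16.3, 28.1, 20.6, 23.4 and 21.9 CPM, a log2 difference of -2.88 ± 0.19 (adjusted p = 1.3e-20, edgeR). The averages of both genes were without overlap, but Kcnh1 was 12.9 CPM in NP_Mrgprd neurons and 6.38 CPM in PEP3_Trpm8 neurons. Kcnh7, the third ERG gene, was called higher in NP neurons at 13.0, 7.42, 9.90, 7.94 and 6.50 CPM against 5.16, 2.70, 7.37, 2.57 and 4.22 CPM, where the groups overlapped (log2 difference 1.14 ± 0.24, adjusted p = 4.6e-05, edgeR). Its level came mostly from NP_Nts neurons, at 19.3 ± 5.13 CPM, and with a prior count of 2 its log2 difference was 0.97, under the 2-fold limit.

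Kcnq5 was 1.73, 1.70, 1.83, 1.10 and 1.69 CPM in NP neurons and 8.29, 14.4, 11.8, 13.1 and 14.5 CPM in PEP neurons and was called lower (adjusted p = 3.5e-10, edgeR). Kcns2, a silent subunit, was 0.487, 0.358, 0.147, 0.0627 and 0.356 CPM against 6.14, 6.28, 5.00, 4.57 and 6.30 CPM and was called lower. Its PEP level came mostly from PEP1_Slc7a3.Sstr2 neurons, at 17.2 CPM, and the next type, PEP1_S100a11.Tagln2, held 4.86 CPM. The count filter favours a scarce gene on the side where it is high, so no p-value is given for Kcns2. Kcnq5 and Kcns2 each have 1 NP type with 0 UMIs, so no fitted fold change is given, and neither had overlapping averages. By type, Kcnq5 was 4.78 CPM in NP_Mrgprd neurons, above PEP1_S100a11.Tagln2 (2.27 CPM) and PEP3_Trpm8 neurons (0.731 CPM). Kcna1, Kcna2, Kcna4, Kcnab2, Kcnd3, Kcnh3 and Kcnip1 were also among the 15. Kcnh3 was 11.9 CPM in PEP1_Slc7a3.Sstr2 neurons, and the next type, NP_Nts, held 2.11 CPM, so its call has the same limit as that of Kcns2. The test was void for 2 genes that were lower in NP neurons without overlap. Kcnd2 was 0.00334 ± 0.00747 CPM against 0.943 ± 0.614 CPM (DESeq2 adjusted p = 0.00026), and Kcnh8 was 0.637 ± 0.347 CPM against 8.14 ± 3.92 CPM (DESeq2 adjusted p = 0.037).

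Of the 6 genes higher in NP neurons, 2 were KChIP genes. Kcnip2 was 84.3, 74.6, 71.7, 63.7 and 64.5 CPM in NP neurons and 1.96, 8.91, 2.76, 3.30 and 4.22 CPM in PEP neurons, a log2 difference of 3.54 ± 0.20 (adjusted p = 1.1e-23, edgeR). Kcnip4 was 324, 298, 278, 306 and 346 CPM against 34.0, 52.6, 38.0, 42.1 and 46.4 CPM, a log2 difference of 2.89 ± 0.09 (adjusted p = 5.1e-36, edgeR). Neither overlapped. Kcnip1 was the reverse, at 6.47 ± 2.46 CPM in NP and 44.1 ± 2.30 CPM in PEP neurons (log2 difference -2.53 ± 0.17, adjusted p = 8.9e-21, edgeR).

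Kcnd1, a Kv4 pore subunit, was 66.8, 67.4, 55.0, 54.9 and 52.6 CPM in NP and 36.5, 48.0, 41.1, 40.7 and 47.3 CPM in PEP neurons, a log2 difference of 1.20 ± 0.11 (adjusted p = 3.2e-14, edgeR) without overlap. PEP2_Htr3a.Sema5a neurons went the other way, at 142 ± 11.9 CPM of Kcnd1 against 79.3 CPM in NP_Mrgprd neurons, the highest NP type. Kcne3, a small subunit that associates with several pore subunits, was 5.83, 5.62, 11.3, 8.43 and 9.33 CPM against 1.30, 1.31, 1.23, 2.52 and 1.99 CPM, a log2 difference of 2.35 ± 0.26 (adjusted p = 5.6e-11, edgeR). PEP1_S100a11.Tagln2 neurons, at 3.52 CPM, had a higher Kcne3 mean than NP_Mrgprd neurons, at 2.62 CPM. Kcns1 was called higher (log2 difference 1.01 ± 0.31, adjusted p = 0.0033, edgeR), but in CPM it was 3.12, 3.64, 3.10, 4.47 and 3.96 in NP and 2.75, 4.07, 4.55, 3.78 and 4.06 in PEP neurons, which overlap and have the higher mean in PEP. The Kcns1 call was lost without library D (log2 difference 0.77, adjusted p = 0.07), with DESeq2 (0.98), without a composition factor (0.92), with thinned cells (0.19) and with a prior count of 2 (0.65).

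Each neuron type was next compared with the mean of the other neuron types, and up to 2 genes called higher are given per type. In NF_Calb1 neurons, which hold low-threshold mechanoreceptors, 19 genes were called higher (16.5% of all genes) and 5 lower (7.4%). Kcna1 was 1393, 1929, 1877, 1287 and 1437 CPM there, against 223 ± 39.1 CPM over the other types (log2 difference 4.81 ± 0.14, adjusted p = 2.6e-38, edgeR). Kcng4 was 10.7, 29.3, 33.6, 4.70 and 20.3 CPM against 1.34 ± 0.430 CPM (log2 difference 4.72 ± 0.26, adjusted p = 2.2e-24, edgeR) and lay above that range in each library despite its wide spread.

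In NF_Pvalb neurons, which carry parvalbumin, 16 genes were called higher (14.7% of all genes) and 6 lower (11.2%). Kcns1 reached 217, 197, 157, 136 and 157 CPM against 16.4 ± 2.40 CPM (log2 difference 5.40 ± 0.12, adjusted p = 2.8e-45, edgeR), and Kcnd2 19.2, 12.8, 8.40, 8.10 and 8.53 CPM against 1.34 ± 0.451 CPM. Kcns3, a silent partner of Kv2, was 1.34 ± 2.48 CPM here and 2.67 CPM in Th neurons, against 32.8 to 196 CPM in the others. Kcnb2, a Kv2 pore subunit, was highest in the same NF_Pvalb neurons, at 116 ± 17.1 CPM.

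In NF2_Ntrk2.Necab2 neurons 17 genes were called higher (10.6% of all genes) and 4 lower (7.92%). Kcnab1 was 254, 202, 244, 237 and 243 CPM against 34.1 ± 3.37 CPM (log2 difference 4.42 ± 0.14, adjusted p = 4.9e-36, edgeR), and Kcnh8 14.3, 10.8, 17.9, 17.1 and 11.3 CPM against 5.71 ± 1.81 CPM. Kcns3 was highest in this type, at 196 ± 24.2 CPM, and its values overlapped those of no other type. This type rested on 3 cells in library A.

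**Figure D3:**
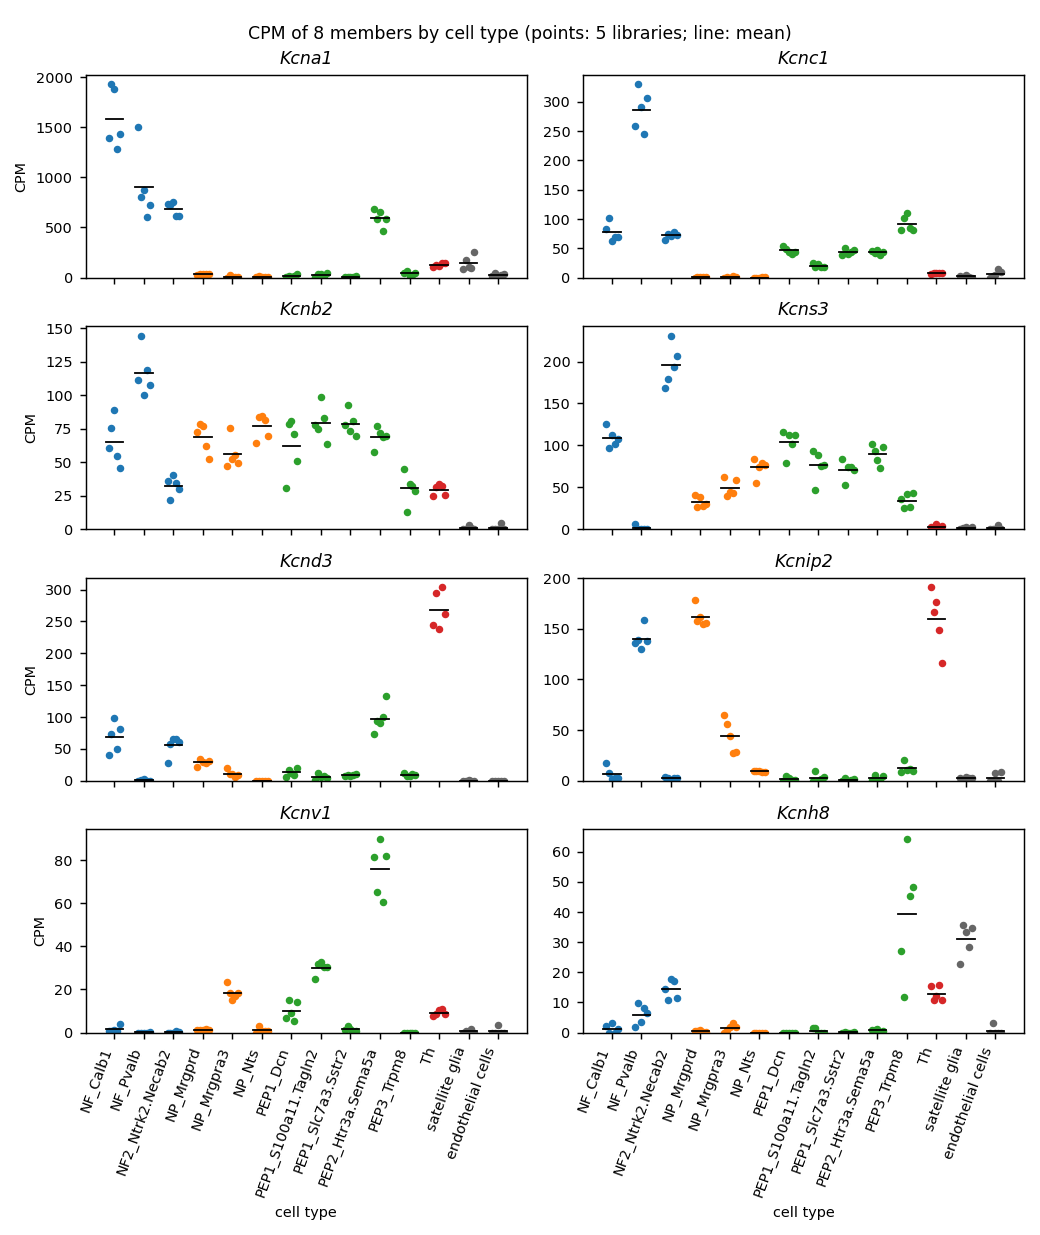
CPM of 8 channel genes in the 14 cell types, with 1 point per library and a line at the mean of the 5 libraries; NF types are blue, NP orange, PEP green, Th red and non-neuronal types grey. Kcns3 is near 0 in NF_Pvalb neurons, where Kcnb2 has its highest mean, Kcnd3 peaks in Th neurons, and Kcnc1 is near 0 in the 3 NP types.

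In NP_Mrgprd neurons, the largest type with 900 cells, 8 genes were called higher (8.17% of all genes) and 6 lower (11.9%). Kcnip2 was 178, 158, 161, 154 and 156 CPM against 34.9 ± 4.30 CPM (log2 difference 4.19 ± 0.15, adjusted p = 1.6e-33, edgeR). Kcnf1, a silent subunit, was 5.40, 5.85, 4.15, 5.31 and 4.78 CPM against 0.856 ± 0.440 CPM. Kcnip4 was also highest here, at 519 ± 33.1 CPM, ahead of Th neurons at 278 ± 14.9 CPM and with no overlap between these types.

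In NP_Mrgpra3 neurons, a pruriceptor type, 5 genes were called higher (7.58% of all genes) and 11 lower (8.25%). Kcne3 was 9.79, 3.69, 20.9, 9.56 and 5.03 CPM against 2.09 ± 0.684 CPM, and Kcnv1, a silent subunit, was 23.5, 18.5, 15.1, 17.1 and 18.4 CPM against 11.9 ± 1.29 CPM. In NP_Nts neurons 7 genes were called higher (9.1% of all genes) and 12 lower (12%). Kcne3 was 2.92, 10.9, 10.6, 14.1 and 21.1 CPM there against 1.89 ± 0.585 CPM. Kcng4 was 1.46, 5.22, 1.76, 9.25 and 5.22 CPM against 2.71 ± 0.860 CPM, values that overlapped (log2 difference 2.73 ± 0.33, adjusted p = 1.3e-10, edgeR). Kcnd3 held 0.0888 CPM and Kcnc1 0.194 CPM in NP_Nts neurons, the lowest of the neuron types for both.

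In PEP1_Dcn neurons 8 genes were called higher (11.2% of all genes) and 7 lower (2.57%). Kcnc2 was 61.6, 56.7, 59.3, 66.0 and 76.7 CPM against 21.0 ± 1.88 CPM (log2 difference 2.63 ± 0.16, adjusted p = 2.7e-22, edgeR) and highest of all types, though its values overlapped those of PEP3_Trpm8 neurons (53.3 ± 10.2 CPM). Kcnv1 was called higher there on the log2 scale, yet its 6.85, 15.2, 9.12, 5.56 and 14.2 CPM overlapped the mean of the other types, 12.6 ± 1.07 CPM, which was the larger, and the call was lost with thinned cells (log2 difference 1.63, adjusted p = 0.01, edgeR). In PEP1_S100a11.Tagln2 neurons 6 genes were called higher (8.6% of all genes) and 11 lower (3.29%). Kcnv1 was 24.9, 32.0, 32.6, 30.5 and 30.3 CPM against 10.8 ± 1.20 CPM, and Kcns2 was 6.64, 3.25, 6.31, 4.16 and 3.95 CPM against 2.25 ± 0.476 CPM.

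In PEP1_Slc7a3.Sstr2 neurons 9 genes were called higher (10.5% of all genes) and 9 lower (5.6%). Kcns2 was 18.1, 19.8, 16.4, 16.9 and 14.9 CPM against 1.12 ± 0.411 CPM. Kcnh3, an ELK subunit, was 13.6, 12.7, 9.69, 11.5 and 11.9 CPM against 0.523 ± 0.277 CPM. Both genes were above the other types in every library, and the next highest type held 4.86 ± 1.51 CPM of Kcns2 and 2.11 ± 1.23 CPM of Kcnh3. Several types held 0 UMIs of either gene, so no fitted fold change is given. Both genes are scarce in the other types, so the count filter favoured their calls in this type.

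PEP2_Htr3a.Sema5a neurons had the most genes called higher, 20 (12.7% of all genes), and 1 lower (2.91%). Kcnv1 was 81.7, 65.1, 89.9, 60.4 and 82.0 CPM against 6.68 ± 0.622 CPM, and Kcnq5 was 25.1, 28.0, 34.3, 30.1 and 35.8 CPM against 5.14 ± 1.01 CPM. Kcnip1, at 99.5 ± 8.54 CPM, and Kcna6, at 120 ± 4.96 CPM, were highest here too, though Kcna6 overlapped PEP1_Dcn neurons (91.3 ± 22.4 CPM). This type shared the high Kcna1 (594 ± 86.1 CPM) and Kcnab2 (598 ± 70.2 CPM) of the NF types, and its Kcna1 values overlapped those of NF2_Ntrk2.Necab2 neurons.

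In PEP3_Trpm8 neurons, which carry the cold receptor Trpm8, 11 genes were called higher (11% of all genes) and 9 lower (6.96%). Kcnh8 was 27.0, 11.7, 64.2, 45.3 and 48.2 CPM against 3.43 ± 0.413 CPM, above the mean of the other neuron types in each library but with a wide spread. Kcnf1 was 3.0, 4.40, 1.02, 2.21 and 7.42 CPM against 0.992 ± 0.298 CPM, from 21 UMIs and with overlap. Kcnd1, Kcnip3 and Kcna6 each had a lower mean in this type than in the other 11 neuron types, at 6.62, 2.36 and 12.6 CPM. The values of Kcnd1 overlapped those of PEP1_Slc7a3.Sstr2 neurons (mean 17.2 CPM). Those of Kcna6 overlapped the values of NF2_Ntrk2.Necab2 neurons (mean 23.1 CPM).

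In Th neurons, the low-threshold C-fibre mechanoreceptors, 15 genes were called higher (9.27% of all genes) and 6 lower (8.74%). Kcnd3, a Kv4 pore subunit, was 244, 295, 237, 303 and 262 CPM against 27.4 ± 5.11 CPM (log2 difference 4.61 ± 0.12, adjusted p = 2.7e-41, edgeR). No value of another type reached this range, and the next type, PEP2_Htr3a.Sema5a, held 97.8 ± 21.6 CPM. Kcnf1 was 8.67, 1.78, 2.10, 3.20 and 6.59 CPM against 0.913 ± 0.389 CPM. Kcna4 was highest in Th neurons, at 56.7 ± 4.21 CPM, though its values overlapped those of PEP2_Htr3a.Sema5a neurons (mean 38.6 CPM). Kcnip2 reached 160 ± 28.6 CPM in Th neurons, a range that overlapped NP_Mrgprd and NF_Pvalb neurons.

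Subunits that assemble together were set side by side over the 12 neuron types. These are descriptions over 12 points from the same libraries, with no test. Spearman's rho of mean CPM was 0.97 for Kcna1 and Kcna2 (Pearson's r of log2(CPM + 1) 0.95), 0.94 for Kcna2 and Kcnab2, and 0.87 for Kcna1 and Kcnab2. It was -0.54 for Kcna1 and Kcna6, although these 2 genes are neighbours 61.9 kb apart on chromosome 6. Kcnd1 and Kcnd3 gave 0.68, and with the KChIPs the highest values were 0.73 for Kcnd3 with Kcnip3 and 0.59 for Kcnd1 with Kcnip3. Kcnd3 and Kcnip2 gave 0.04. Kcnip2 was high in NF_Pvalb neurons (140 ± 10.6 CPM), where Kcnd3 was 0.930 CPM, and Kcnd3 was high in PEP2_Htr3a.Sema5a neurons (97.8 ± 21.6 CPM), where Kcnip2 was 2.62 ± 2.73 CPM. Kcnb2 and Kcns3 gave -0.06.

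Satellite glia, which wrap the neuron bodies, were compared with the mean of the 12 neuron types in a fit over all 14 types. Of the 34 genes tested, 3 were called higher in glia (25.8% of all genes) and 21 lower (24.9%). The median log2 difference of the tested members was -3.35, and of all genes -0.11. Kcnh8 was the one gene higher on both scales. Its level was 22.7, 35.6, 33.3, 28.5 and 34.7 CPM in glia and 5.33, 3.90, 8.69, 7.46 and 6.73 CPM over the neuron types, with no overlap (adjusted p = 6.7e-25, edgeR). NP_Nts and PEP1_Dcn neurons held 0 UMIs of Kcnh8, so its fitted fold change is not given. PEP3_Trpm8 neurons alone had a higher mean. Kcnh8 UMIs were found in 40.2% of the 249 glial cells, and in 27.3% after thinning each cell to 10000 UMIs. The same shares were 1.79% and 0% of 56 endothelial cells, whose median depth of 16889 UMIs was close to the 17729 UMIs of glia; 0 of 56 cells allows a share of cells with a UMI at that depth of up to 5.36%.

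Kcna1 and Kcnh2 were called higher in glia on the mean log2 scale while their mean CPM was lower, because several neuron types hold very little of them. Kcna1 was 85.7, 175, 101, 91.1 and 251 CPM in glia and 376, 363, 365, 269 and 309 CPM over the neuron types (log2 difference 1.21 ± 0.22, adjusted p = 1.7e-06, edgeR). Glia lay above 8 of the 12 neuron types in mean Kcna1, and without a composition factor the log2 difference was 0.94, under the 2-fold limit. Kcnh2 was 25.2, 17.8, 11.1, 15.8 and 20.2 CPM in glia and 29.8, 37.4, 31.8, 30.0 and 31.0 CPM over the neuron types (log2 difference 1.5 ± 0.23, adjusted p = 1.7e-08, edgeR), and glia lay above 7 neuron types. Kcna6 was not called, at 52.8 ± 10.1 CPM in glia and 54.6 ± 5.07 CPM in neurons (log2 difference 0.47 ± 0.17, adjusted p = 0.012, edgeR).

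The ratio of glial to neuronal UMIs was taken for 24 genes with at least 1000 neuronal UMIs. Its median was 0.722 glial UMIs per 1000 neuronal UMIs, and 19 genes were under 3. It was 20.1 for Kcna6 (235 glial UMIs), 17.5 for Kcnh2 (73 UMIs), 11.6 for Kcna1 (579 UMIs), 4.16 for Kcnip3 (52 UMIs) and 3.67 for Kcna2 (88 UMIs). Kcnab2, with 57192 neuronal UMIs, had 42 in glia, a ratio of 0.734. Of the 5 Schwann cell markers of the check, 4 (Mbp, Prx, Pmp22 and Ncmap) summed to between 909 and 1317 CPM in the glial libraries. The same 4 summed to 1478 to 2023 CPM in Th neurons and 53.7 to 820 CPM in the other neuron types. All 5 together summed to 1119 to 2079 CPM in glia and 1483 to 2023 CPM in Th neurons, ranges that overlapped. The part of Schwann cell RNA in the glial values was not tested.

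**Figure D4:**
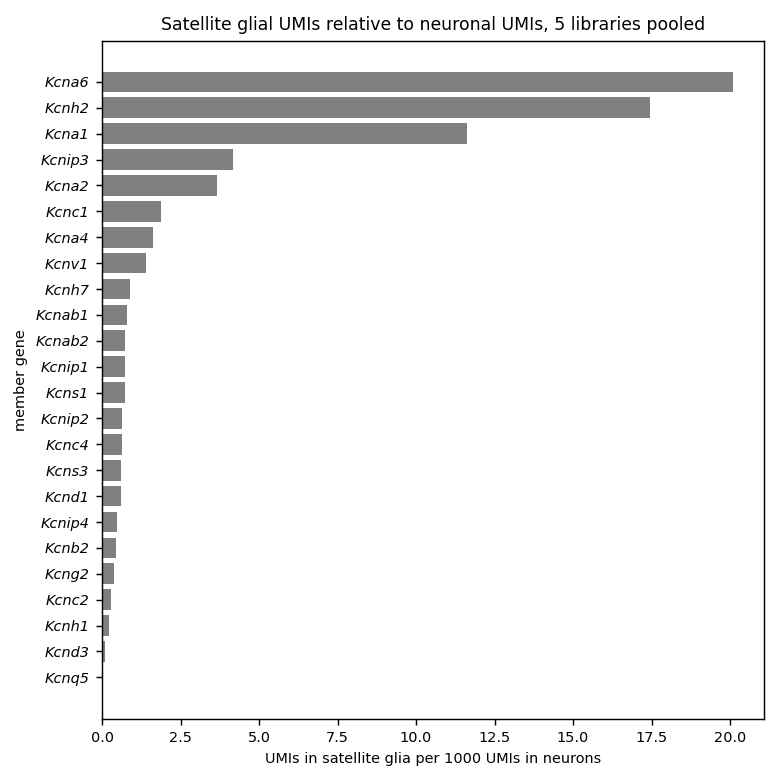
UMIs in satellite glia per 1000 UMIs in the 12 neuron types, pooled over 5 libraries, for 24 channel genes with at least 1000 neuronal UMIs (bars). Kcna6, Kcnh2 and Kcna1 stand far above the remaining genes, 17 of which are under 1.5.

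The 6 called genes with the lowest fitted difference from neurons in glia were Kcnh1, Kcnd3, Kcnc2, Kcnb2, Kcnab2 and Kcns3. Kcnab2 was 2.52, 8.01, 12.5, 7.13 and 14.4 CPM in glia against 358, 402, 324, 323 and 333 CPM in neurons (log2 difference -4.68 ± 0.19, adjusted p = 2.3e-35, edgeR). Kcnb2 was 0, 0, 3.47, 0.792 and 0 CPM against 58.8, 70.5, 69.6, 64.5 and 55.1 CPM, and Kcns3 was 0, 1.78, 2.77, 0 and 2.89 CPM against 76.6, 57.9, 75.4, 66.4 and 73.6 CPM. None of these groups overlapped. Kcnh1, Kcnd3 and Kcnc2 rested on 1 glial UMI each. This is 0.219 CPM of the pooled glial UMIs (95% exact Poisson interval 0.00554 to 1.22 CPM, counting error only), against a neuronal mean of 23.1, 47.5 and 24.6 CPM. The Kcnd3 call was lost without library E, which held all UMIs of Kcnd3 in NP_Nts neurons (log2 difference -5.11, adjusted p = 1, edgeR). With thinned cells the calls of Kcnd3, Kcnc2 and Kcns3 were lost too (log2 differences -4.16, -3.81 and -3.82, adjusted p = 1 for each, edgeR). The test is void there because some neuron types held 0 UMIs. These were NP_Nts for Kcnd3, NF_Calb1 and NF_Pvalb for Kcnc2, and NF_Pvalb for Kcns3. Glia still held UMIs of each gene. With all cells and libraries the test was void for Kcnq5, Kcnv1, Kcns2, Kcnh3, Kcnd2 and Kcne3, all lower in glia in CPM without overlap. Kcnq5 had 0 UMIs in glia against 7.27 ± 1.06 CPM in neurons (DESeq2 adjusted p = 0.0076), and the DESeq2 adjusted p of the other 5 was between 0.028 and 0.47.

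In endothelial cells, with 56 cells in all, 1 of the 34 genes tested was called higher (21.4% of all genes) and 17 lower (28.9%). The gene that was higher was Kcne4, a small subunit that inhibits some Kv1 channels. Its level was 17.2, 36.4, 73.8, 14.9 and 18.5 CPM in endothelial cells and 0, 1.63, 0.479, 1.19 and 0.888 CPM over the neuron types, with no overlap. Kcne4 was too scarce to be tested among the neuron types and passed the count filter through its endothelial sums. Its call was therefore favoured in advance, and no p-value is given. This call rested on 37 endothelial UMIs, and with thinned cells Kcne4 was too scarce to be tested. The 5 endothelial markers (Pecam1, Cldn5, Flt1, Cdh5 and Egfl7) summed to between 5617 and 8905 CPM in these cells. The 3 mural cell markers (Rgs5, Acta2 and Pdgfrb) summed to between 69.5 and 395 CPM there, and 5 satellite glia markers (Apoe, Fabp7, Kcnj10, Glul and Sparc) to between 5062 and 19338 CPM. The part of mural and glial RNA in the Kcne4 level was not tested. Kcnq1, an epithelial and cardiac Kv7 subunit, was too scarce to be tested, with 8.55 ± 7.35 CPM in endothelial cells and at most 2.26 ± 0.727 CPM, in Th neurons, elsewhere.

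The called genes with the lowest fitted difference from neurons in endothelial cells included Kcnd3, Kcna4, Kcna2, Kcnab2 and Kcnb2. Kcnd3 and Kcna4 had 0 UMIs in all 5 libraries. Against the floor of 3 counts over the pooled endothelial UMIs, 3.19 CPM, they were at least 14.9-fold and 5.70-fold lower than the neuronal mean. Kcna2 was 0, 3.31, 0, 0 and 0 CPM against 202, 177, 168, 160 and 152 CPM, and Kcnb2 was 0, 0, 0, 4.96 and 0 CPM against the neuronal values given above, each from 1 UMI. Kcnab2 was 0, 3.31, 3.69, 9.93 and 0 CPM against the same neuronal values as in the glial comparison (log2 difference -5.97 ± 0.31, adjusted p = 3.7e-28, edgeR). Without library E, or with thinned cells, the test of Kcnd3 was void, and with thinned cells that of Kcna4 too (adjusted p = 1 for each, edgeR). The same 6 genes as in glia had void tests in endothelial cells, and none passed with DESeq2 (adjusted p between 0.17 and 0.73). For Kcns2, Kcnh3, Kcnd2 and Kcne3 the neuronal mean lies under the floor of 3.19 CPM, so a difference was not detectable at this depth.

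Other proteins that bind these channels were followed with a list of 31 genes, of which 30 were in the matrix and 26 were tested among neurons. In NF neurons 11 were higher, against 14% of all genes, and 1 was lower, against 11.6%. The 11 included Lgi2 (17.2 ± 1.62 against 0.248 ± 0.142 CPM) and Lgi3 (164 ± 23.6 against 10.7 ± 1.39 CPM), secreted proteins that bind the Adam11, Adam22 and Adam23 receptors, and these 3 receptors were higher as well. Cntnap1, Cntnap2 and Cntn2, adhesion proteins of the paranode and juxtaparanode where Kv1 channels gather, were also higher, with Cntnap2 at 283 ± 26.0 against 48.4 ± 5.29 CPM. Nedd4l, a ubiquitin ligase that acts on several channels, was lower, at 43.0 ± 6.94 against 151 ± 6.91 CPM. Between NP and PEP neurons 3 were higher in NP (Dpp10, Amigo3 and Lgi1), against 5.47% of all genes, and 6 lower, against 14.1%. Dpp10, an accessory subunit of Kv4 channels, was 41.7 ± 2.00 CPM in NP and 11.6 ± 3.54 CPM in PEP neurons. In glia 2 of 28 tested genes were higher, against 25.8% of all genes, and 21 lower, against 24.9%. Lgi4, a glial signal in myelination, was 63.7 ± 15.5 CPM against 0.749 ± 0.141 CPM in neurons.

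The genes not tested among neurons were low in the neuron types. Kcnh5 reached 6.35 ± 2.44 CPM in NF_Calb1 neurons, Kcna5 5.64 ± 2.96 CPM in NP_Mrgpra3 neurons, Kcnab3 3.39 ± 0.363 CPM in NF_Pvalb neurons and Kcng3 1.57 ± 1.56 CPM in NP_Mrgpra3 neurons. Kcne4, Kcnq1 and Kcnq3 are described above. Kcna7, Kcna10, Kcne2, Kcng1, Kcnh4 and Kcnv2 stayed under 1 CPM in every type and held between 5 and 30 UMIs in all cells. On the same strand, 1 of the 49 genes, Kcnip1, overlaps another protein-coding gene (4930469K13Rik) in GENCODE M21, and reads in that overlap could not be assigned with certainty.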

How the data were processed

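Lumbar DRG cells of 5 untreated wild type mice were profiled by 3′ single-cell RNA-seq. Per the study's methods and the submitters' processing notes, reads were aligned to mm10 and counted with Cell Ranger, cells were filtered and clustered with Seurat, and doublet removal is not given in the sources used here. The authors deposited raw UMI counts of 3352 cells, as many as the study states, with a type for each cell; 188 of them exceeded its stated limit of 10% mitochondrial UMIs. Other columns held labels (other), per the file headers. No column of sample values was left out (0 columns). The 5 library identifiers in the cell names match no sample label, so each library was used as a replicate of the wild type group, and nothing further separates technical from animal-to-animal spread.

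Counts were summed per type and library, leaving out 4 rows that name no mouse gene (143 UMIs, 6.37e-05% of all). Sums were tested with edgeR 4.0.16 (R 4.3.3) after filterByExpr and TMM scaling, with quasi-likelihood tests, Benjamini-Hochberg adjustment over all genes, and calls at adjusted p under 0.01 and at least 2-fold. A gene passes this filter on enough counts in as few sums as 1 type has, so calls of scarce genes were favoured on their high side. The 12 neuron types formed 1 fit (60 sums) and all 14 types another (70 sums). An edgeR test with an SE over 100, which arises where a type holds 0 UMIs, was taken as void. The script was tested on simulated data. DESeq2 1.42.0, no composition factor, no count filter, sums of at least 10 cells, a library block, thinning to 10000 UMIs and leaving out each library were the alternatives tried; a prior count of 2 in place of 0.125 and leaving out cells over 10% mitochondrial UMIs were added after seeing the data. Types of a library come from the same mouse: the deviations of 2 types correlated at r = 0.13 within a library and -0.05 between libraries.

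The members and all lists were chosen with earlier results of these data known. Named were up to 6 called members per direction with the largest fold change in the NF, NP to PEP, glial and endothelial comparisons, and up to 2 members per neuron type that were called higher and had a higher mean log2(CPM + 1) than the other neuron types in every library, which can differ from the order of mean CPM; other members are named by role. Some genes are not reported here by name; they stay in the sums, fits and counts of calls, and were left out of the figures and the glial ratios. Sequences and positions came from RefSeq (GRCm38.p6) and GENCODE M21 on the same build. Levels were computed with Python 3 libraries, and doublets were not called again.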

Additional observations from a re-analysis of the deposited data

Results flagged for a closer look

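In 5 of the named comparisons 1 library lay apart from the other 4 by Dixon's criterion, which chance flags in about 1 of 20 groups. The values are differences of log2(CPM + 1) within a library. Kcnq5 between NP and PEP neurons was -1.14 in library A and -2.08 or lower in the others. Kcnh1 between satellite glia and neurons was -2.03 in library E, where its single glial UMI lay, and -3.75 or lower in the others. Kcna2 between endothelial cells and neurons was -4.33 in library B and -6.16 or lower in the others, and Kcnb2 was -3.35 in library D and -5.70 or lower in the others. Each of the last 2 also rested on 1 UMI, in that library. Kcns2 in PEP1_Slc7a3.Sstr2 neurons against the mean of the other neuron types was 2.99 in library E and 3.58 or higher in the others. All 5 kept their direction in every library.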

How the results depend on the processing

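The 16 members higher in NF neurons, the 15 lower in NP neurons and the 3 higher in glia stayed within 1.5 times these counts under all alternatives run. DESeq2 called 11 members lower in NF neurons in place of 7, the 7 among them, since it gave a test where a type with 0 UMIs voided that of edgeR. Thinning cells to 10000 UMIs, which leaves fewer UMIs per sum, gave 4 in place of 7 lower in NF, 3 in place of 6 higher in NP, 12 in place of 21 lower in glia, and 0 in place of 1 higher and 9 in place of 17 lower in endothelial cells. Without the count filter, and with sums of at least 10 cells, 2 members in place of 1 were higher in endothelial cells, and the cause was not tested. Leaving out 1 library gave 15 to 16 members higher and 6 to 7 lower in NF, 5 to 7 higher and 14 to 15 lower in NP, 3 to 3 higher and 19 to 22 lower in glia, and 1 to 1 higher and 14 to 17 lower in endothelial cells. With the library as a replicate block, the counts were the same in all 4 comparisons (16 and 7 in NF, 6 and 15 in NP, 3 and 21 in glia, 1 and 17 in endothelial cells), and the block changed no other call of a named member. Of 810 alternative values of the 64 named member differences, 793 stayed on their side of the limits, 17 no longer passed and 0 reversed. In 22 further cases the member had too few UMIs to be tested, 18 of them with thinned cells, Kcne4 in endothelial cells included, and 4 without library E. In glia and endothelial cells a single UMI decided whether some members were at 0.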
